A study of Mus musculus with 49 samples.

Results

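The genes described here encode machinery of mitosis. Among them are the kinases that drive entry into it, the kinetochore, and the spindle checkpoint. The set also holds activators and the E2 enzyme of the ubiquitin ligase that starts anaphase, but not the subunits of that ligase. Further members encode spindle motors, proteins of cytokinesis, and condensin subunits with their partners. All genes were chosen by name for these roles, and each was read on the longest RefSeq transcript of its symbol. All 51 were found among the 23992 gene symbols of the tables, and all 51 passed the filter on low counts, which kept 15566 genes. The lowest count of any of them in any library used was 34 reads, in KI cells of the Stat5a line at 0 hr.

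RNA-seq was done on CD8+ T cells that were isolated from the spleens of C57BL/6J mice with a magnetic selection kit. In the Stat5a line, KI mice are homozygous for an allele that replaces a tyrosine of STAT5A by phenylalanine (Y694F). The KI mice of the Stat5b line are homozygous for the matching change in STAT5B (Y699F), and both genes lie on chromosome 11. WT cells came from littermates of each line. Both alleles were made with CRISPR-Cas9 and sit in the germline, so that every cell type of these mice carries them, not only T cells. Cells of each line and genotype were collected at 0 hr or after 4, 24, or 48 hr of culture in recombinant human IL-2 at 500 IU/ml, which makes 16 groups of 3 libraries. No group was cultured without IL-2, so a change from 0 hr joins IL-2 with time in culture. The term IL-2 response below stands for such a change. The labels do not say which mouse a library came from or whether mice were pooled, so p-values measure the spread between these libraries only. The third replicate of the KI cells at 4 hr in the Stat5a line was left out: it holds 1028515 reads on the transcripts used, against 17369112 to 60200653 in the other 47 libraries (median 41410666). A floor of 3 reads corresponds to 0.0498 to 0.173 CPM in these 47 libraries, for counting error only.

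In resting T cells, which do not divide, most genes of this kind are little transcribed. After a mitogenic signal such as IL-2, the cell grows, copies its DNA, and then transcribes the mitotic genes late, in G2 and M phase, when the DREAM complex gives way to B-MYB and FOXM1 at their promoters. STAT5A and STAT5B are the transcription factors that the IL-2 receptor activates through JAK kinases, and phosphorylation of the tyrosine that is changed here lets them form dimers through their SH2 domains. In bulk RNA, fewer cells in mitosis, less RNA per cell, and another mix of CD8+ T cell subsets cannot be told apart. By flow cytometry, the authors found fewer CD8+ T cells with high CD44 and CD122 in KI mice of both lines.

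The promoters of many mitotic genes share 2 short elements: the cell cycle genes homology region (CHR), spelled TTTGAA or TTCGAA, and the CCAAT box bound by NF-Y. To show both where they were found, the 100 bases just upstream of the RefSeq start (GRCm38.p6, the build of the tables) are printed for 4 genes that hold them and for Fzr1, which has no CHR letters in its window; capitals mark CHR and CCAAT letters on either strand. The windows are chr10:69352913-69353012 (minus strand) for Cdk1, chr4:118437344-118437443 (minus) for Cdc20, chr2:164769829-164769928 (plus) for Ube2c, chr3:89418292-89418391 (minus) for Cks1b, and chr10:81378371-81378470 (minus) for Fzr1.
Cdk1: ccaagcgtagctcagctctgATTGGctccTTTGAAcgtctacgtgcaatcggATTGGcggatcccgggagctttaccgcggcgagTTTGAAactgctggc
Cdc20: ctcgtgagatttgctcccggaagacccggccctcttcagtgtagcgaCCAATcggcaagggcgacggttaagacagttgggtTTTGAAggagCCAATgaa
Ube2c: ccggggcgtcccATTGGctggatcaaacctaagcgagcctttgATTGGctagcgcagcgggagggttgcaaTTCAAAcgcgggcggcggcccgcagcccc
Cks1b: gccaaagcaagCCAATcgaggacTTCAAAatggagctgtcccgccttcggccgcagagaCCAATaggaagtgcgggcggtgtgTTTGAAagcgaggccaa
Fzr1: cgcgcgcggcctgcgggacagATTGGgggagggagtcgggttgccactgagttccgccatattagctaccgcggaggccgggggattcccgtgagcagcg

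Of the 51 genes, 43 have a RefSeq window from 250 bases before to 50 after the start of the transcript used. The CHR letters were found on either strand in 32 of these 43 windows (74.4%), against 14.0% of the windows of all 10890 tested genes that have one and 19.2% of all 32851 windows of the table. CCAAT was found in 31 (72.1%), against 38.4% of tested genes and 37.4% of all windows, and 28 (65.1%) held both, against 5.75% of tested genes. The E2F spellings TTTCCCGC, TTTGGCGC, and TTTGCCGC were found in 4 windows (9.30%, against 3.38% of tested genes and 1.99% of all windows). TTCNNNGAA, the GAS motif of STAT proteins, was found in 2 (4.65%, against 7.17% of tested genes and 8.30% of all windows), those of Spdl1 and Ncaph. A match of letters is a description and not a binding site. Windows without the CHR letters are those of Birc5, Cenpe, Cks2, Fzr1, Kif18a, Mad2l1, Melk, Ncaph, Nuf2, Nusap1, and Pttg1.

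In WT cells the median of the 51 genes was low at 0 and 4 hr and climbed at 24 and 48 hr. That median in WT cells of the Stat5b line was 2.29 RPKM (reads per kilobase of transcript and library size) at 0 hr, 2.58 at 4 hr, 10.3 at 24 hr, and 35.8 at 48 hr. WT cells of the Stat5a line gave 2.07, 2.13, 8.89, and 31.6 RPKM at the same times. In WT cells at 0 hr, 13 genes (Stat5a line) and 15 (Stat5b line) were under 1 RPKM on average, and at 48 hr 46 and 48 genes were at 10 RPKM or more. A gene is called here at an adjusted p of at most 0.05 in edgeR's quasi-likelihood test (Benjamini-Hochberg, over all genes tested) with a fold change of at least 2. At 24 hr against 0 hr, 42 genes rose and 0 fell in each line, where 8.72% of all genes tested rose in Stat5a WT and 9.07% in Stat5b WT cells; the median log2 fold change was 1.81 and 1.90. At 48 hr, 49 rose and 0 fell in each line, against 14.3% and 14.6% of all genes, with medians of 3.74 and 3.91. The median of all genes tested was -0.12 and -0.13 in these 48 hr comparisons, so the rise stands slightly higher against it. The summed markers of other cells moved over the same times: in WT cells of the Stat5b line the medians went from 56.8 to 13.3 RPKM for B cells, 39.9 to 2.92 for plasma cells, 71.3 to 7.21 for erythroid cells, and 36.1 to 3.31 for myeloid cells from 0 to 48 hr, and from 10.9 to 39.6 for NK cells. In WT cells of the Stat5a line they went from 148.2 to 31.75, 45.2 to 2.61, 229.5 to 9.69, 54.3 to 6.19, and 8.08 to 40.4. Which cells made these RNAs, CD8 T cells included, was not tested, nor was the part of these shifts in the rise. The highest rises in the Stat5b line were those of Ncapg, a condensin subunit (4.98 ± 0.27, SE), Kif2c, a kinesin that takes microtubules apart at centromeres (4.84 ± 0.32), and Ttk (4.72 ± 0.26).

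**Figure D1:**
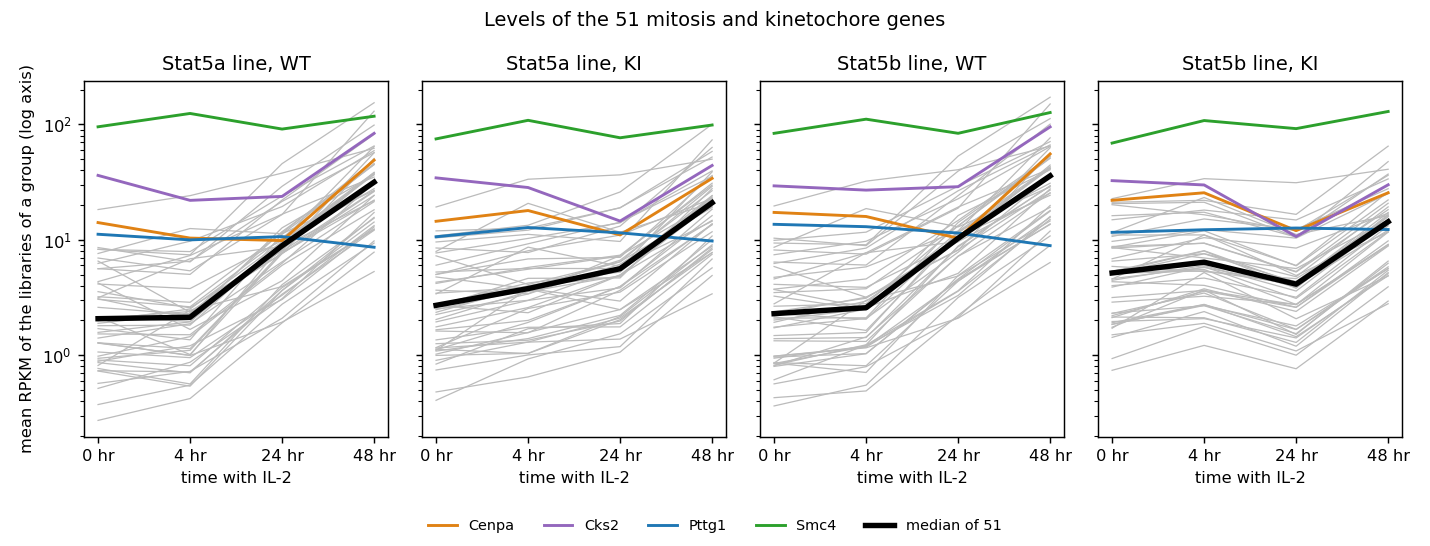
Mean RPKM (log axis) of each of the 51 genes at 0, 4, 24, and 48 hr with IL-2 in WT and KI cells of both lines; times are evenly spaced, grey lines are single genes, 4 genes that leave the common pattern are in colour, and the black line is the median of all 51. The median climbs to 31.6 and 35.8 RPKM in WT cells, to 20.9 in Stat5a KI cells, and to 14.3 in Stat5b KI cells, where it dips at 24 hr.

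Much of the rise came late. From 24 to 48 hr, 48 of the 51 genes rose in WT cells of each line, with a median log2 fold change of 1.80 and 1.83 (Stat5a and Stat5b lines), where 3.83% and 3.05% of all genes rose. Ube2c, the E2 enzyme that loads ubiquitin for the anaphase-promoting complex, read 6.60, 8.40, and 9.50 RPKM at 0 hr, 13.6, 19.9, and 22.9 at 24 hr, and 148.7, 147.8, and 154.3 at 48 hr in WT cells of the Stat5b line. The libraries of each of these times lie apart from those of the others, and the step from 24 to 48 hr (log2 3.01 ± 0.26, SE) was the highest of the 51. Plk1, the polo-like kinase of mitotic entry and spindle assembly, followed with 2.81 ± 0.22, and Ccnb2, a B-type cyclin that activates Cdk1, with 2.72 ± 0.24. For comparison, a list of 22 DNA replication genes (MCM helicase, origin and polymerase subunits) had 19 of 22 called higher at 24 hr in WT cells of each line. Its median log2 fold changes at 24 hr were 1.804 and 2.075 (Stat5a and Stat5b lines), near the 1.805 and 1.905 of the 51 genes. From 24 to 48 hr it rose less, with 6 and 2 of 22 called higher and medians of 0.80 and 0.53. The difference between the lists was not tested.

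At 4 hr few of the 51 genes passed the fold limit. In WT cells 2 genes rose and 3 fell in the Stat5a line (10.0% and 11.4% of all genes), and 2 rose and 1 fell in the Stat5b line (5.83% and 9.89%). The Stat5a WT balance turned to more higher than lower without replicate 3 at 0 hr or without replicate 1 at 4 hr. In KI cells 3 rose and 1 fell in the Stat5a line (6.58% and 11.2%), and 2 rose and 0 fell in the Stat5b line (4.92% and 8.85%). By the adjusted p alone, 11 were higher and 6 lower in Stat5a WT cells, 7 and 5 in Stat5b WT cells, and 11 and 3 in KI cells of each line. Of all genes, 29.5% and 28.9% were higher and lower by that rule in Stat5a WT cells, 25.1% and 24.5% in Stat5b WT cells, 25.2% and 25.2% in Stat5a KI cells, and 22.8% and 25.7% in Stat5b KI cells. All libraries at 4 hr lay above all at 0 hr in RPKM for 23 genes and below for 5 in WT cells of the Stat5b line (41.8% and 22.8% of all genes), and for 26 and 1 in its KI cells (41.7% and 19.9%). By both call rules the share of the 51 genes that was higher at 4 hr was no larger than that of all genes in each of the 4 groups. In KI cells the gaps were small, and no difference between these shares was tested. Spdl1, which brings dynein to kinetochores, and Ndc80, the microtubule-binding subunit of the outer kinetochore, rose in all 4. Spdl1 read 0.864, 0.849, and 0.851 RPKM at 0 hr and 3.43, 2.80, and 2.73 at 4 hr in WT cells of the Stat5b line (log2 1.63 ± 0.17), and Ndc80 went from 3.05, 2.66, and 2.64 to 7.59, 7.37, and 8.23 (1.29 ± 0.14). Kif23, a kinesin of the central spindle, fell by 1.06 ± 0.12 in the same cells, and by 1.45 ± 0.13 in WT cells of the Stat5a line. Aurka, the spindle pole kinase (-1.32 ± 0.18), and Cdca5, which protects cohesion (-1.08 ± 0.25), also fell in the Stat5a line, where replicate 2 of the WT cells at 4 hr reads low for several of these genes (Cdk1 at 1.17, 0.397, and 1.43 RPKM). In that library 44.86% of mapped reads lay on the transcripts used, against 71.71% and 72.94% in replicates 1 and 3. Its CD8 T cell markers summed to 584.8 RPKM, against 888.9 and 993.6. The third that rose in Stat5a KI cells was Fzr1 (1.15 ± 0.17).

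In the Stat5b line the KI cells started higher and ended lower than the WT cells. At 0 hr, 30 of the 51 genes were higher and 0 lower in KI cells (7.38% of all genes were higher), with a median log2 fold change of 1.09. At 4 hr 33 were higher and 0 lower (9.20% of all genes), with a median of 1.18. By 24 hr the order had turned: 0 were higher and 36 lower (5.77% of all genes), with a median of -1.35, and at 48 hr 0 were higher and 46 lower (9.81% of all genes), with a median of -1.52. With limma on log2(RPKM + 1), which understates changes of low genes, 10 and 17 were called at 0 and 4 hr. The share of all genes called by limma is not given here. All 3 KI libraries lay above all 3 WT libraries in RPKM for 48 genes at 0 hr and 46 at 4 hr (28.4% and 31.3% of all genes), and below them for 48 genes at 24 hr and 49 at 48 hr (29.7% and 32.1%).

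Cdk1, the kinase that drives mitosis, shows the crossing. At 0 hr it read 1.12, 1.71, and 1.61 RPKM in WT and 3.60, 4.67, and 3.76 in KI cells. At 24 hr the values were 9.26, 12.8, and 13.3 in WT and 2.68, 3.81, and 3.06 in KI, and at 48 hr 42.1, 42.8, and 43.6 in WT and 13.1, 16.3, and 10.3 in KI. KI and WT libraries do not overlap at any of these times. The log2 fold change of KI against WT was 1.38 ± 0.26 at 0 hr (adjusted p = 0.00017), -1.91 ± 0.25 at 24 hr (4.26e-08), and -1.77 ± 0.24 at 48 hr (4.64e-08). Mki67, the chromosome surfactant detected by Ki-67 antibodies, went the same way, from 5.64, 6.37, and 7.23 RPKM in WT and 15.9, 17.2, and 15.5 in KI cells at 0 hr (1.27 ± 0.23) to 97.7, 97.9, and 106.2 in WT and 37.2, 44.5, and 29.8 in KI cells at 48 hr (-1.52 ± 0.23).

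Further members show how wide the higher start was in KI cells of the Stat5b line at 0 hr. Kif2c had the highest fold change (1.45 ± 0.31), with 0.472, 0.740, and 0.625 RPKM in WT and 1.24, 2.20, and 1.80 in KI cells. Ccnb2 read 3.62, 4.02, and 4.70 in WT and 10.7, 12.5, and 9.78 in KI cells (1.36 ± 0.24), and Melk, a kinase of dividing cells, 0.626, 0.831, and 0.942 against 1.76, 2.27, and 1.71 (1.20 ± 0.20). The groups did not overlap for any of these. Cenpe and Cenpf, large proteins of the outer kinetochore, stood at 1.22 ± 0.23 and 1.28 ± 0.21, and Ect2, which starts the cleavage furrow, at 0.85 ± 0.17, under the fold limit. At 24 hr the lowest fold changes were those of Cdca5 (-2.07 ± 0.23), Bub1 (-1.95 ± 0.23), and Cdk1. Cks2, Aurka, Bub3, Fzr1, Cenpa, and Smc4 did not pass the test at 0 hr, and Pttg1 was lower (-0.29 ± 0.10, adjusted p = 0.0245).

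Within KI cells of the Stat5b line, 0 of the 51 genes were called higher at 24 hr than at 0 hr (1 by edgeR's unadjusted p under 0.05), and 5 were called lower (11.2% of all genes): Cks2, a Cdk1-binding subunit (-1.76 ± 0.14), Ube2c (-1.11 ± 0.25), Aurka (-1.06 ± 0.17), Ccnb2 (-1.03 ± 0.24), and Cenpa, the centromeric histone H3 variant (-1.03 ± 0.15). By the adjusted p alone 23 fell (26.7% of all genes) and 1 rose, Bub3 (0.31 ± 0.09). Ube2c read 20.5, 23.7, and 17.5 RPKM at 0 hr, 8.82, 11.8, and 11.1 at 24 hr, and 46.5, 57.3, and 38.9 at 48 hr. All 3 libraries at 24 hr were below all 3 at 0 hr for 22 genes (24.8% of all genes) and above them for 3 (38.6%), Bub3, Smc2, and Smc4. By the fold limit the share of the 51 genes called lower was no higher than that of all genes. Over the same 24 hr the summed markers of plasma cells went from a median of 281.5 down to 101.7 RPKM in these KI cells, without overlap, those of myeloid cells from 126.7 to 185 down to 40.4 to 79.4, and those of B cells from 222 to 229 down to 173.1 to 199.5, while erythroid sums overlapped (502 to 1236 and 237 to 557), and their part in the fall was not tested. At 48 hr 38 genes had risen over 0 hr (5.56% of all genes), with a median of 1.18. The count at 24 hr rests on few genes near the fold limit and dropped to 1 without replicate 1 of the KI cells at 24 hr and to 3 without replicate 2 or replicate 3 at 0 hr.

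**Figure D2:**
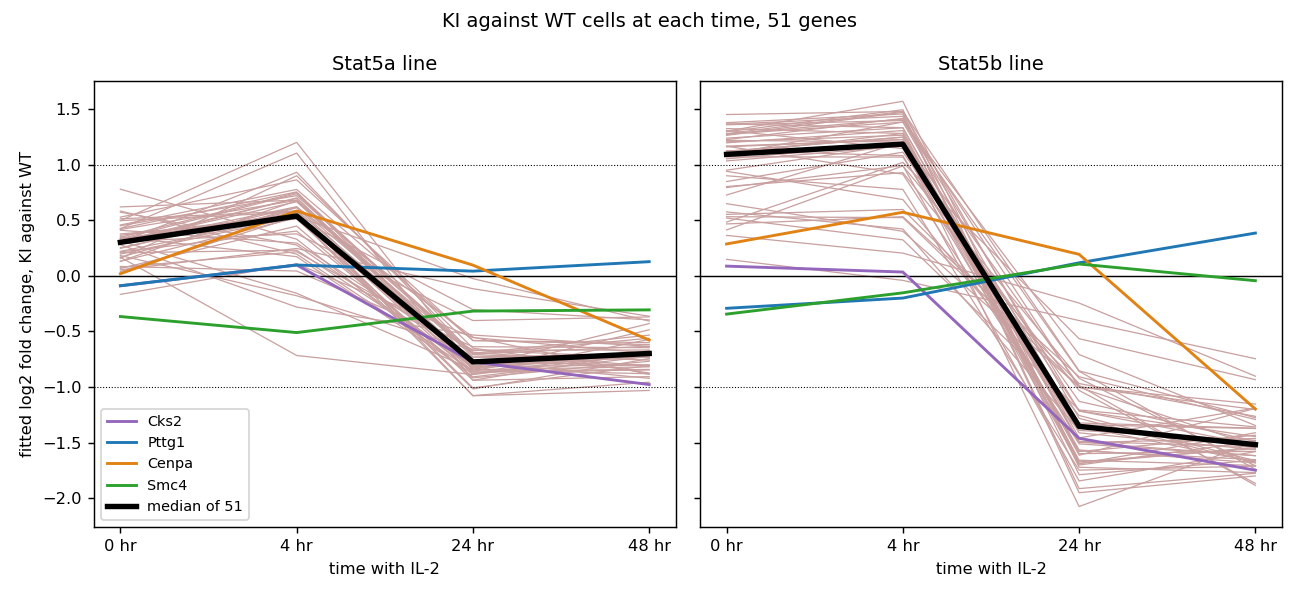
Fitted log2 fold change of KI against WT cells at 0, 4, 24, and 48 hr (evenly spaced) for each of the 51 genes in each line; dotted lines mark a 2-fold change, the same 4 genes are in colour, and the black line is the median. In the Stat5b line the median goes from 1.09 and 1.18 to -1.35 and -1.52, and in the Stat5a line from 0.30 and 0.54 to -0.77 and -0.70.

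The response to culture with IL-2 was compared as the change from 0 hr in KI cells minus that in WT cells. It was smaller in KI cells of the Stat5b line for 46 of 51 genes at 24 hr (6.66% of all genes) and 48 at 48 hr (11.1%). The median log2 differences were -2.44 and -2.59. Cdk1 had the lowest difference at both times (-3.29 ± 0.36 and -3.15 ± 0.35). These values join the higher start and the lower end, and they share their libraries with the comparisons of KI and WT cells at single times. Set beside WT cells at 24 hr (median 10.3 RPKM), KI cells of the Stat5b line at 48 hr had a median of 14.3 RPKM: all 3 KI libraries lay above all 3 WT libraries for 20 genes and below them for 0 (33.7% and 21.8% of all genes), and the groups overlapped for the other 31.

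The loss at 48 hr in the Stat5b line covered every role. All 7 mitotic kinases and partners, all 4 subunits of the chromosomal passenger complex, all 7 kinetochore and centromere genes, and all 7 spindle motors and microtubule proteins were called lower, with medians of -1.71, -1.62, -1.27, and -1.56. So were 5 of 6 spindle checkpoint genes (-1.51), 5 of 7 genes of anaphase and cohesion (-1.49), 4 of 5 of the midzone and cytokinesis (-1.49), and 7 of 8 of chromosome structure (-1.40). Expressed as a share of the WT mean RPKM, the KI level at 48 hr had a median of 36.9% and ran from 28.6% (Plk1) to 137.8% (Pttg1).

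Plk1 at 48 hr read 54.8, 55.5, and 58.6 RPKM in WT and 16.1, 19.3, and 12.95 in KI cells (log2 -1.88 ± 0.21, the lowest of the 51). Cdc20, the activator of the anaphase-promoting complex, read 76.1, 74.7, and 78.7 in WT and 21.3, 26.8, and 18.4 in KI cells (-1.86 ± 0.22). All KI libraries lay far below the WT range for both genes, and KI replicate 3 was the lowest of the 3. Bub1, a checkpoint kinase at kinetochores, was next at -1.80 ± 0.23.

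Aurkb, the kinase of the chromosomal passenger complex, read 49.4, 50.7, and 53.6 RPKM in WT and 14.9, 20.6, and 12.2 in KI cells at 48 hr (-1.77 ± 0.24), and its partner Birc5 (survivin) 40.7, 42.5, and 41.6 against 13.7, 17.7, and 11.5 (-1.62 ± 0.27). Among checkpoint genes, Bub1b (BubR1) read 40.5, 40.2, and 43.8 against 14.7, 20.2, and 12.8 (-1.46 ± 0.18). WT and KI libraries were far apart for all 3. Mad2l1 (MAD2), Ttk (the kinase MPS1), and Spdl1 had log2 fold changes of -1.48 ± 0.14, -1.54 ± 0.22, and -1.66 ± 0.16. Bub3, which carries BUB1 and BubR1 to kinetochores and also works in interphase, was the exception of its role at 41.6, 44.8, and 36.2 RPKM in KI against 63.7, 64.0, and 66.9 in WT cells (-0.74 ± 0.09, adjusted p = 8.01e-09 but under the fold limit).

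The kinetochore genes had the smallest median loss of the 8 roles. Ndc80 read 24.0, 26.3, and 26.1 RPKM in WT and 11.5, 13.7, and 9.90 in KI cells at 48 hr (-1.20 ± 0.13), Cenpf 11.2, 11.6, and 12.9 against 4.68, 6.61, and 4.30 (-1.27 ± 0.20), and Cenpe 15.3, 16.2, and 16.3 against 5.29, 7.36, and 4.84 (-1.53 ± 0.22). WT and KI libraries were again apart, and the order of the roles was not tested. Among the kinases, Aurka stood at -1.71 ± 0.16, Melk at -1.55 ± 0.18, and Ccnb2 at -1.34 ± 0.23, and in cytokinesis Ect2 at -1.49 ± 0.15.

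Top2a, the topoisomerase that untangles sister chromatids, had the highest level of the set in WT cells at 48 hr, with 162, 168, and 187 RPKM, and 59.3, 84.0, and 51.2 in KI cells of the Stat5b line (-1.49 ± 0.20). The kinesin motors Kif11, which pushes spindle poles apart, and Kif20a, which works in cytokinesis, stood at -1.54 ± 0.20 and -1.67 ± 0.20 in KI against WT cells, and Tpx2, the activator of Aurora A on spindles, at -1.65 ± 0.23. Smc2 and Ncapg, subunits of condensin, which compacts chromosomes, stood at -1.36 ± 0.12 and -1.66 ± 0.23. Ncapg and Kif20a each share exon bases with a gene on the opposite strand (20.8% with Lcorl and 31.2% with Cdc23), and whether reads were counted by strand is not stated, so part of their reads may belong to those genes.

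**Figure D3:**
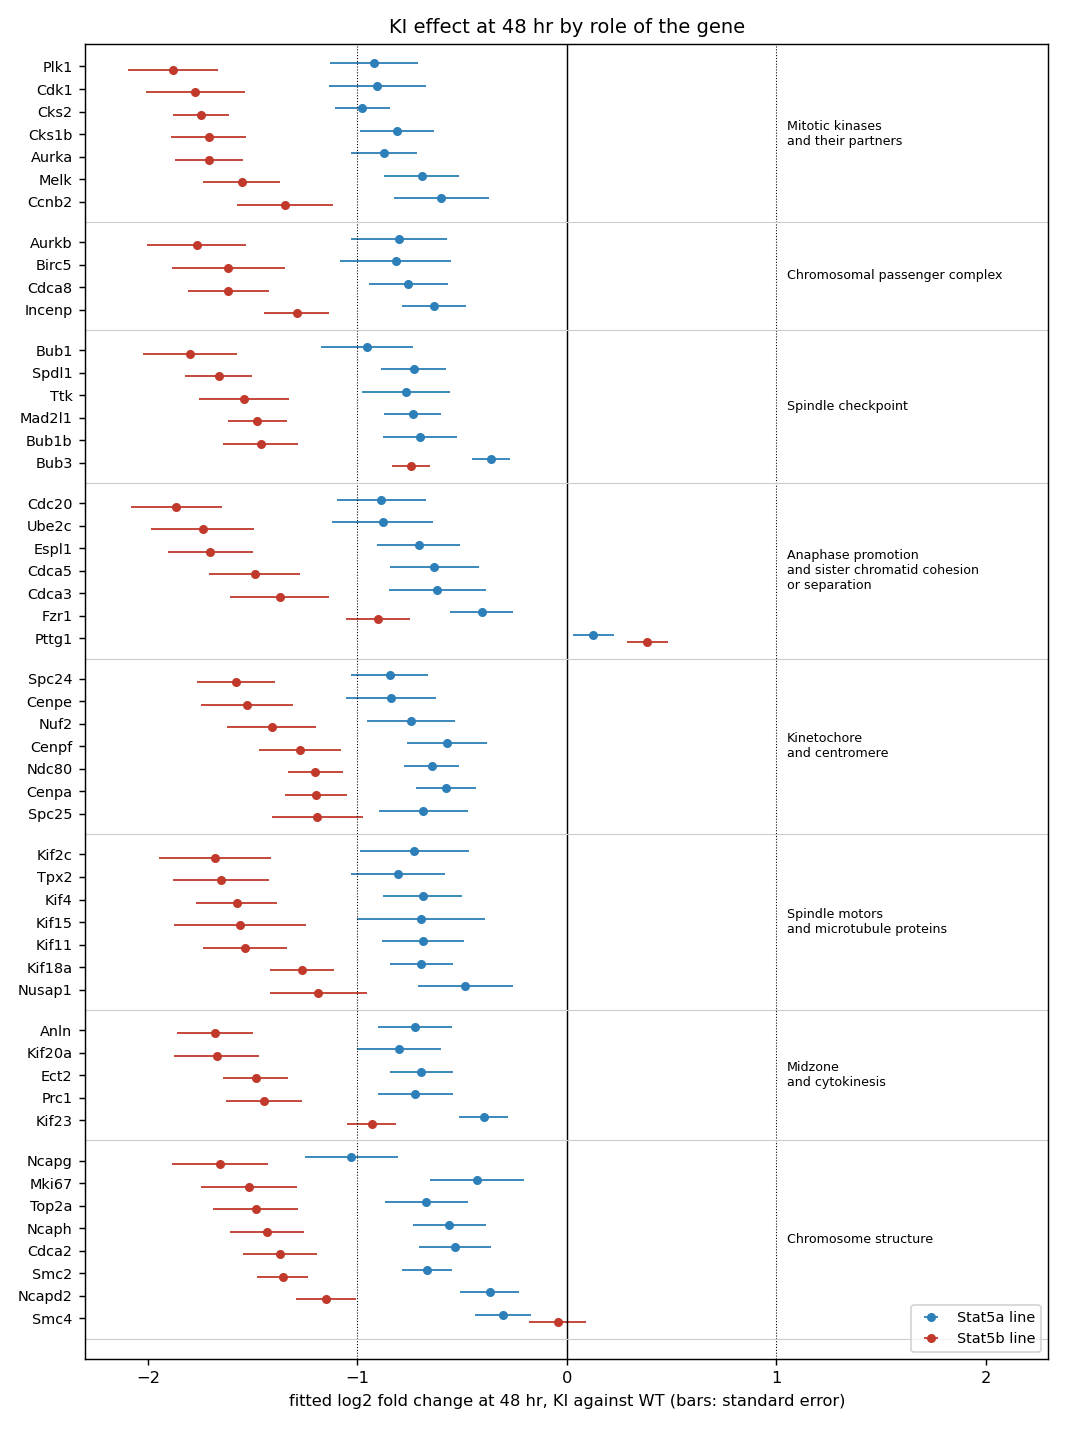
Fitted log2 fold change of KI against WT cells at 48 hr for each of the 51 genes, grouped by role, in the Stat5a (blue) and Stat5b (red) lines; bars are standard errors and dotted lines mark a 2-fold change. The Stat5b values lie left of the Stat5a values for all genes but Pttg1 and Smc4.

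A few genes left the common pattern. Pttg1 (securin, the inhibitor of separase) read 12.6, 14.7, and 13.5 RPKM in WT cells of the Stat5b line at 0 hr and 9.13, 8.66, and 8.92 at 48 hr. It thus fell over 48 hr of culture with IL-2 in WT cells (-0.79 ± 0.10, adjusted p = 4.82e-09, and -0.58 ± 0.10 in the Stat5a line). It was also the only member to pass the test as higher in KI cells of the Stat5b line at 48 hr, at 13.2, 11.4, and 12.2 RPKM (0.38 ± 0.10, adjusted p = 0.000789). Espl1 (separase), the enzyme it inhibits, followed the main pattern with 14.9, 14.9, and 17.2 in WT and 4.87, 6.37, and 3.99 RPKM in KI cells at 48 hr (-1.70 ± 0.20). Smc4, the condensin partner of Smc2, stood high throughout: 97.5, 75.0, and 78.5 RPKM in WT cells of the Stat5b line at 0 hr and 118.2, 128.2, and 133.6 at 48 hr, against 116.8, 134.3, and 137.2 in KI cells at 48 hr, and KI and WT cells overlapped (-0.04 ± 0.14).

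Cenpa fell in WT cells by 24 hr, by 0.93 ± 0.15 on the log2 scale in the Stat5b line, before it rose. Cks2 did so in WT cells of the Stat5a line (-0.78 ± 0.13) and stood at -0.21 ± 0.13 in those of the Stat5b line. Cenpa in the Stat5b line read 16.8, 17.1, and 17.9 RPKM in WT cells at 0 hr, 8.71, 9.98, and 12.2 at 24 hr, and 54.1, 56.9, and 55.4 at 48 hr. Its KI cells read 21.9, 22.0, and 22.0, then 11.3, 11.3, and 13.4, and then 25.0, 29.1, and 22.5, so that WT and KI overlapped at 24 hr (0.19 ± 0.15) and were apart at 48 hr (-1.20 ± 0.15). Fzr1 (CDH1), the activator of the anaphase-promoting complex in G1 phase, read 21.1, 16.7, and 18.2 RPKM at 4 hr and 11.8, 13.9, and 13.2 at 24 hr in WT cells of the Stat5b line, and all KI libraries of 24 hr also lay below those of 4 hr. KI against WT cells differed at 48 hr by less than the fold limit (-0.90 ± 0.15).

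**Figure D4:**
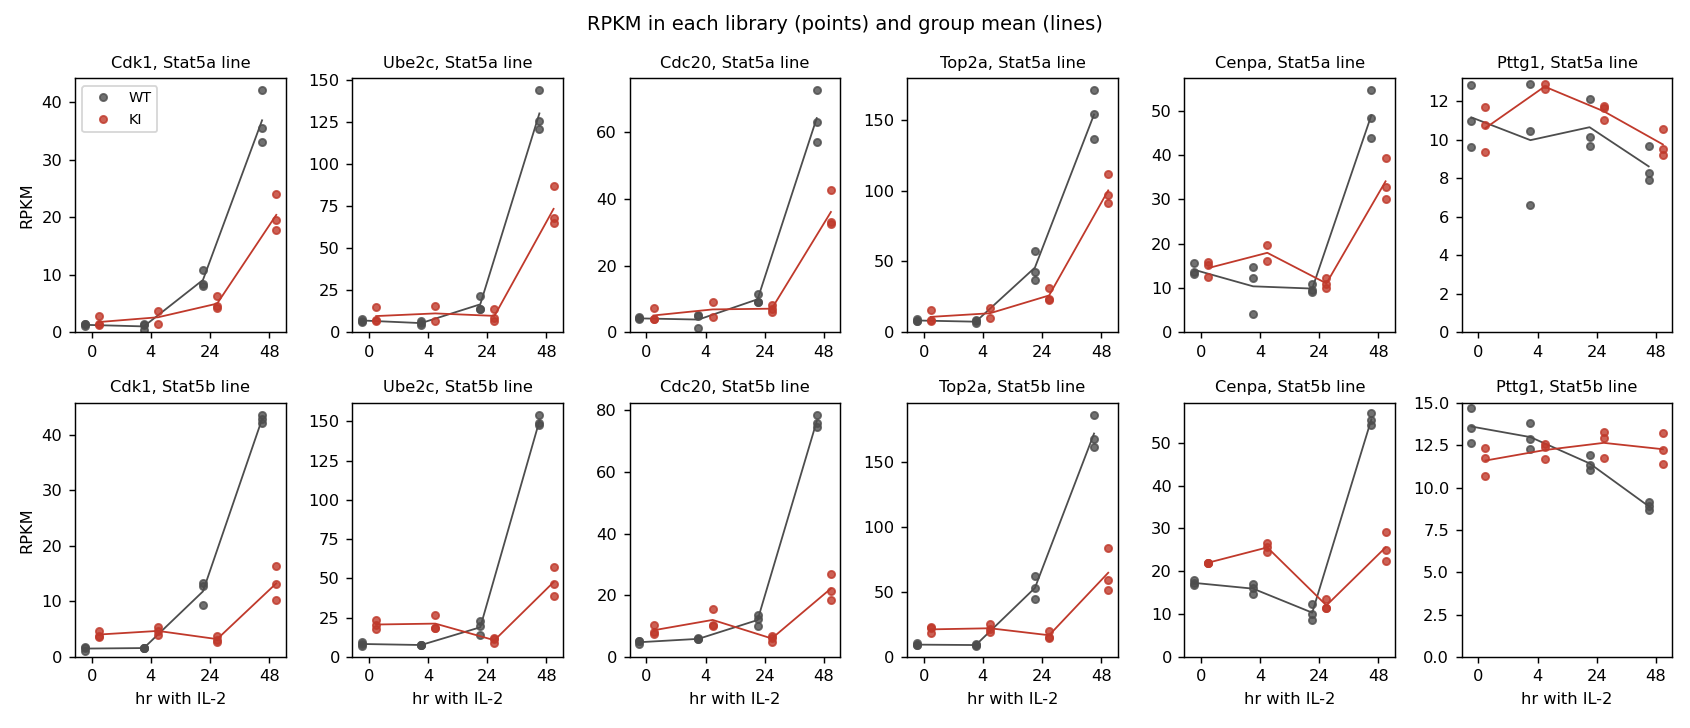
RPKM of 6 genes in each library (points, WT grey and KI red) with the group means as lines, at 0, 4, 24, and 48 hr (evenly spaced), in the Stat5a line (top) and the Stat5b line (bottom); axes start at 0. Cdk1, Ube2c, Cdc20, and Top2a climb at 48 hr with the KI libraries below the WT libraries, Cenpa dips at 24 hr, and Pttg1 stays between 6.60 and 14.7 RPKM.

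The KI cells of the Stat5a line had lower levels of most of the 51 genes at 24 and 48 hr, but not at 0 and 4 hr. At 48 hr 1 gene was called lower and 0 higher (2.43% of all genes were lower), while 46 were lower by the adjusted p alone (22.8% of all genes), with a median log2 fold change of -0.70. All 3 KI libraries lay below all 3 WT libraries for 49 genes (26.1% of all genes). The fold stayed under the limit for all but Ncapg (-1.03 ± 0.22). The count was 3 without WT replicate 1, 8 without KI replicate 1, and 2 without KI replicate 2. The KI level had a median of 63.9% of the WT level and ran from 50.9% (Ncapg) to 113.2% (Pttg1). Cdk1 read 33.0, 42.0, and 35.5 RPKM in WT and 24.0, 19.4, and 17.8 in KI cells (-0.91 ± 0.23, adjusted p = 0.00162), and Plk1 44.9, 58.9, and 48.3 against 32.9, 24.8, and 25.6 (-0.92 ± 0.21). Pttg1, Smc4, Mki67, Kif15, and Nusap1 did not pass the test, among them Mki67 at 84.6, 82.7, and 78.8 in WT and 65.7, 57.4, and 66.4 RPKM in KI cells (-0.43 ± 0.22, adjusted p = 0.121).

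At 24 hr 4 genes were called lower in Stat5a KI cells (1.24% of all genes): Ncapg, Bub1, Nuf2, and Tpx2, at -1.08 to -1.01. By the adjusted p alone 42 were lower (9.01% of all genes) and 0 higher. Each library moved the 4 calls: they became 10, 0, and 11 without WT replicate 1, 2, and 3, and 13, 1, and 2 without KI replicate 1, 2, and 3. The KI cells nevertheless responded: against 0 hr, 12 of the 51 genes rose by 24 hr (7.36% of all genes) with 1, Cks2, lower, and 47 by 48 hr (9.31%). The lowest responses at 48 hr were those of Pttg1 (-0.36 ± 0.10), Cks2 (0.12 ± 0.13), and Smc4 (0.16 ± 0.14). The 13 calls at 24 hr became 29 without replicate 1 at 0 hr, 6 without replicate 2 at 0 hr, and 8 without replicate 3 at 0 hr or replicate 1 at 24 hr. All 3 KI libraries at 48 hr lay above all 3 WT libraries at 24 hr for 49 genes (30.7% of all genes).

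Before IL-2, 0 of the 51 genes were called different in the Stat5a line (0.861% of all genes were higher), with a median of 0.30; edgeR's unadjusted p fell under 0.05 for 9 of them, DESeq2 and limma also called 0, and by the adjusted p alone only Anln, a cytokinesis scaffold, was higher (0.78 ± 0.21, adjusted p = 0.0344). At 4 hr 2 were called higher (2.47% of all genes), Aurkb (1.20 ± 0.29) and Cdk1 (1.10 ± 0.29), and 18 were higher by the adjusted p alone (11.9% of all genes), with a median of 0.54. That comparison has 2 KI libraries, which differ: their medians over the 51 genes were 5.01 and 2.73 RPKM. Plasma cell markers summed to 63.7 to 261 RPKM in these KI libraries, against 10.8 to 41.1 in WT cells. Myeloid markers summed to 25.6 to 50.4 against 13.2 to 17.5. B cell sums (medians of 257 and 79.8) did not overlap either, while erythroid sums did (216 to 501 and 80.2 to 377). The part of such cells in the higher level at 4 hr was not tested. No gene was called without replicate 1 of the KI cells or without replicate 2 of the WT cells, 4 were called without replicate 3 of the WT cells, and 17 without replicate 2 of the KI cells, where the lone library is assumed to vary like the other groups.

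The IL-2 response was smaller in Stat5a KI than in WT cells for 26 genes at 24 hr (1.31% of all genes) and for 26 at 48 hr (3.09%), with median log2 differences of -1.06 and -1.001. Anln had the lowest difference at both times (-1.69 ± 0.28 and -1.50 ± 0.28). Without replicate 1 of the KI cells at 0 hr these counts became 2 and 4. At 24 hr the count was also 16 without replicate 1 of the WT cells at 0 hr, 9 without replicate 2 of the WT cells at 24 hr, and 13 and 12 without replicate 2 or 3 of the KI cells at 24 hr.

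The KI effects of the lines were compared directly, as the log2 fold change of KI against WT in the Stat5b line minus that in the Stat5a line. At 24 hr 2 genes were called lower (1.27% of all genes), Cdca5 (-1.37 ± 0.31, adjusted p = 0.00221) and Cks1b, a Cdk1-binding subunit (-1.06 ± 0.26, adjusted p = 0.00344), and 15 were lower by the adjusted p alone (11.4% of all genes). At 48 hr 1 was called lower (0.514% of all genes), Mki67 (-1.09 ± 0.32, adjusted p = 0.0218), and 27 by the adjusted p alone (7.83% of all genes), with a median of -0.79. The highest differences at 48 hr were those of Smc4 (0.26 ± 0.19) and Pttg1 (0.26 ± 0.14), and neither passed the test. At 48 hr the count was 19 without replicate 2 of the Stat5b KI cells, 0 without replicate 3 of them, 2 without replicate 1 or 2 of the Stat5b WT cells, and 6, 3, and 4 without WT replicate 2, KI replicate 2, and KI replicate 3 of the Stat5a line. At 24 hr it was 9 without replicate 2 of the Stat5a WT cells, 5 without replicate 3 of the Stat5a KI cells, 6 without replicate 1 of the Stat5b WT cells or replicate 2 of the Stat5b KI cells, and 1 without replicate 1 of either Stat5a group, replicate 2 or 3 of the Stat5b WT cells, or replicate 1 or 3 of the Stat5b KI cells. Espl1 and Cdc20 (-0.997 ± 0.28 and -0.98 ± 0.30 at 48 hr) lay just short of that limit.

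Other genes of mitosis, from a list of 95 that does not hold the 51, are given beside them, and the difference between the lists was not tested. In KI against WT cells of the Stat5b line, 17 of the 95 were called higher at 0 hr (7.38% of all genes). The median of the 95 was 0.19. At 48 hr 50 of the 95 were called lower (9.81% of all genes), with a median of -1.07. The lowest were Ccnb1, the main partner of Cdk1 (-2.10 ± 0.25), and Mybl2, which encodes B-MYB (-1.87 ± 0.19), and the highest Nipbl, the cohesin loader (0.49 ± 0.13), and Numa1, which organises spindle poles (0.40 ± 0.07), both under the fold limit. At 48 hr, 10 of 17 inner kinetochore genes and 14 of 18 other spindle and cytokinesis genes were lower. So were 3 of 16 subunits of the anaphase-promoting complex and 3 of 12 cohesin genes, where 9.81% of all genes were lower. The differences between these groups of genes were not tested. At 0 hr, 0 of the 16 subunits of the anaphase-promoting complex were called in either direction by either rule. The replication list had a median of 0.37 with 2 of 22 called higher at 0 hr in KI cells of the Stat5b line, and of -1.53 with 19 of 22 called lower at 48 hr.

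Genes with and without the CHR letters are given side by side. In the Stat5b line the 32 genes with them had a median log2 fold change of 3.96 from 0 to 48 hr in WT cells and of -1.53 in KI against WT cells at 48 hr, and the 11 without them 3.76 and -1.43.

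Markers of other cell types differed between the groups and are given here beside these results. Which cells made the RNA of these markers was not tested. All libraries held Cd8a and Cd8b1 with the general T cell genes Cd3d, Cd3e, and Cd3g. The sum of these genes, called the CD8 T cell sum here, was 954 to 1016 RPKM in KI and 1158 to 1298 in WT cells of the Stat5b line at 0 hr. In the same cells, all 7 B cell markers were called higher in KI cells (summed RPKM 222 to 229 against 55.1 to 63.4, led by Cd79a), as were all 8 erythroid markers (502 to 1236 against 47.9 to 147.3, led by globin genes), 8 of 9 myeloid markers (126.7 to 185 against 33.7 to 42.0, led by Lyz2), and all 3 plasma cell markers (269 to 350 against 34.0 to 44.9, led by Jchain, listed as Igj). The 4 CD4 T cell markers summed to 21.7 to 29.7 against 10.6 to 13.6 RPKM and the 4 NK cell markers to 3.45 to 4.89 against 10.7 to 15.3.

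At 24 hr, KI and WT cells of that line had median sums of 101.7 against 7.26 RPKM for plasma cell markers, and sums of 173.1 to 199.5 against 25.5 to 32.3 for B cell markers, 237 to 557 against 22.5 to 45.8 for erythroid markers, and 40.4 to 79.4 against 6.07 to 10.3 for myeloid markers. At 48 hr 7 of 7 B cell, 7 of 8 erythroid, 9 of 9 myeloid, and 2 of 3 plasma cell markers were called higher in KI cells of the Stat5b line. B cell markers summed to 124.3 to 130.6 against 11.4 to 13.8 RPKM, erythroid markers to 145.3 to 273.5 against 5.89 to 10.9, myeloid markers to 61.1 to 96.5 against 3.24 to 4.54, and plasma cell markers to 36.0 to 47.1 against 2.89 to 3.40. The CD8 T cell sum, lower in KI cells at 0 hr, was higher at 48 hr (1498 to 1667 against 1030 to 1062 RPKM), the CD4 sum was 17.2 to 17.7 against 3.40 to 4.01, and the NK cell sum 20.2 to 25.6 against 32.4 to 48.3. Of the myeloid markers, Csf1r, C1qa, C1qb, and Cd14 were each at 0 in 1 WT library there, and none was at 0 in the KI libraries. At 4 hr the B cell sum was 194.0 to 213.6 in KI against 40.8 to 52.6 in WT cells, the plasma cell sum 228.9 to 284.3 against 27.8 to 37.5, the erythroid sum 440.8 to 1063 against 45.2 to 119.6, the myeloid sum 65.9 to 81.2 against 15.4 to 20.3, and the NK cell sum 4.11 to 6.73 against 13.6 to 22.5. The part of such cells in the higher level at 0 and 4 hr, and in the lower level at 24 and 48 hr, was not tested.

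In the Stat5a line at 48 hr the B cell markers summed to 101.3 to 120.6 RPKM in KI against 13.3 to 39.4 in WT cells, the myeloid markers to 23.2 to 65.1 against 3.17 to 7.86, the erythroid markers to 23.3 to 29.4 against 8.75 to 10.2, and the plasma cell markers to 4.05 to 16.3 against 2.09 to 3.55. The CD8 T cell sum was 1505 to 1661 against 1062 to 1184, the CD4 sum 12.6 to 13.3 against 4.55 to 5.37, and the NK cell sum 26.7 to 28.2 against 34.2 to 42.5. All but the NK cell sum were thus higher in KI cells, without overlap. At 24 hr the B cell sum was 173.3 to 216.3 against 26.1 to 86.6, the myeloid sum 32.4 to 74.6 against 5.54 to 16.8, and the plasma cell sum 14.7 to 83.4 against 4.79 to 14.2, while the erythroid sums overlapped (34.6 to 73.6 against 31.0 to 53.0). The part of these differences in the lower level of the 51 genes was not tested.

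At 0 hr replicate 1 of the Stat5a KI cells stood apart. Its median over the 51 genes was 3.79 RPKM, against 2.15 and 2.03 in replicates 2 and 3 and 1.99 to 2.14 in WT cells. It also had the highest sums of the 3 for plasma cell (352 against 84.3 and 81.4), myeloid (146.8 against 97.5 and 84.6), erythroid (498 against 270 and 180), and B cell markers (299 against 242 and 277). WT libraries had sums of 41.9 to 60.0, 34.1 to 62.7, 79.98 to 453.8, and 55.8 to 159 for these lists. At 4 hr replicate 1 of the KI cells stood above replicate 2 in the median over the 51 genes (5.01 against 2.73) and in the sums of plasma cell (261 against 63.7), myeloid (50.4 against 25.6), erythroid (501 against 216), and B cell markers (311 against 204). The part of these cells in the level of the 51 genes was not tested.

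**Figure D5:**
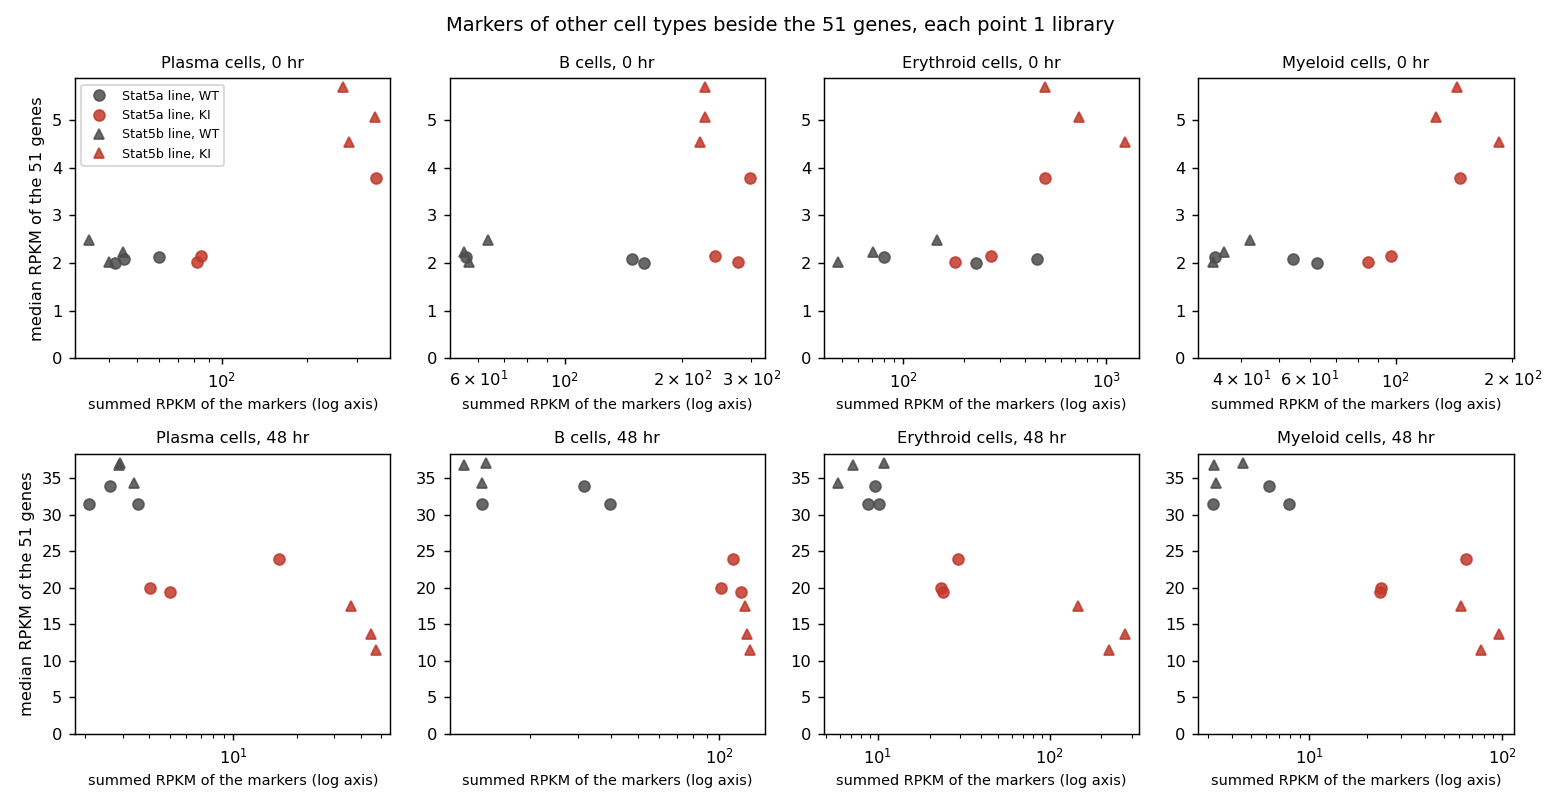
Median RPKM of the 51 genes against the summed RPKM (log axis) of the plasma cell, B cell, erythroid, and myeloid markers in each library at 0 hr (top) and 48 hr (bottom); circles are the Stat5a line, triangles the Stat5b line, grey WT, and red KI. At 0 hr the 4 libraries with a median above 3 RPKM are the 3 of the Stat5b KI cells and replicate 1 of the Stat5a KI cells, and these have plasma cell sums of 269 to 352 RPKM against 34.0 to 84.3 in the other 8, and myeloid sums of 126.7 to 185 against 33.7 to 97.5. Their B cell sums (222 to 299 against 55.1 to 277) and erythroid sums (498 to 1236 against 47.9 to 453.8) are also shown, and the B cell sums overlap.

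The transcripts of Stat5a and Stat5b themselves did not pass the fold limit in any comparison of KI and WT cells. Stat5b RNA was somewhat higher in KI cells of its line at 48 hr (log2 0.47 ± 0.11, adjusted p = 0.000533), as was Stat5b in the Stat5a line (0.33 ± 0.11, adjusted p = 0.0156), and Stat5a did not pass the test at 48 hr in either line. In Stat5b KI cells, Stat5b was also higher at 24 hr (0.37 ± 0.11, adjusted p = 0.00583) and Stat5a at 4 hr (0.34 ± 0.08, adjusted p = 0.000818). The other comparisons did not pass the test. These counts do not read the allele and so check no label.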

How the data were processed

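RNA-seq was done in 48 libraries of mouse CD8+ T cells, and 47 were used. The authors made libraries from polyadenylated RNA, sequenced 50-base single reads, aligned them with TopHat to mm10, kept uniquely mapped reads, and deposited for each RefSeq transcript the read count in exons and the RPKM. Per the labels, the processing notes name Bowtie2 2.2.6, TopHat2 2.0.11, SAMtools 0.1.8, bedtools 2.25.0, and edgeR; the counting program and its strand setting are not given in the sources used here.

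From these files the longest transcript of each of 23992 symbols was taken. Deposited counts were tested with edgeR 4.0.16 (R 4.3.3; quasi-likelihood test, TMM, filterByExpr with a minimum count of 10) with 1 mean for each of 16 groups and no replicate block, Benjamini-Hochberg adjusted over 15566 genes. Genes were called at a fold of at least 2 and an adjusted p not above 0.05. SE is the log2 fold change divided by the square root of its F. RPKM is shown for levels. Alternatives were DESeq2 1.42.0, limma 3.58.1 on log2(RPKM + 1) of genes at 1 RPKM or more in at least 3 libraries, DESeq2's size factors, the adjusted p alone, no filter, all 48 libraries, the most counted transcript, only the groups compared, a replicate block, and leaving out libraries. The fit was also run on simulated data, whose outcome is not given here and is not used.

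The members and lists were chosen with earlier results of these data known. Values are given for genes picked by role, for the 3 highest and 3 lowest members of a comparison, and for exceptions; other genes named were chosen after their values were seen. Per-gene chi-square values of replicate pairs ran from 4.84 to 222 over 46 pairs, so no libraries were merged. Same-numbered replicates were compared by the correlation of their deviations: in WT cells of the Stat5a line every pair was above 0.1 at 24 hr (0.206, 0.273, and 0.419) and 48 hr (0.166, 0.117, and 0.192) against 0 hr. For KI cells of that line at 4 hr only 2 pairs exist (0.161 and 0.181), and in no other comparison were all 3 above 0.1.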

Additional observations from a re-analysis of the deposited data

Results flagged for a closer look

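The IL-2 response differed between genotypes by a test of the difference itself. In the Stat5b line 46 members at 24 hr and 48 at 48 hr had a smaller response in KI than in WT cells (6.66% and 11.1% of all genes). In the Stat5a line 26 at 24 hr and 26 at 48 hr did so (1.31% and 3.09% of all genes). The Stat5a counts became 2 and 4 when replicate 1 of KI cells at 0 hr was left out. Pttg1 went the other way in the Stat5b line, with log2 differences of 0.41 at 24 hr and 0.68 at 48 hr.

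The effect of the KI allele differed between the lines for 2 members at 24 hr, Cks1b (-1.06) and Cdca5 (-1.37), and for 1 at 48 hr, Mki67 (-1.09), each as the log2 fold change in the Stat5b line minus that in the Stat5a line. Of all genes tested, 1.27% at 24 hr and 0.514% at 48 hr were called lower in the same comparisons. By the adjusted p alone 15 and 27 members were lower (11.4% and 7.83% of all genes). With single libraries left out the counts of calls ran from 1 to 9 and from 0 to 19. Groups of 3 libraries were not tested for single values that stand apart.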

How the results depend on the processing

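Calls of members by the fold and adjusted p rule kept their direction under all alternatives run, except for Stat5a WT cells at 4 hr against 0 hr, where 5 calls (2 higher) became 17 by the adjusted p alone, 5 without replicate 3 at 0 hr, 6 without replicate 1 at 4 hr, and 6 with the 4 Stat5a libraries that stand apart left out (a choice made after seeing the data), with more higher than lower; the cause was not tested. By the adjusted p alone the counts were 12 and 14 at 4 hr in Stat5b WT and KI cells, 14 and 40 at 4 and 24 hr in Stat5a KI cells, 24 at 24 hr in Stat5b KI cells, 1, 19, 42, and 46 for Stat5a KI against WT at 0, 4, 24, and 48 hr, 44 for the Stat5a response at 48 hr, and 15 and 27 for the difference between lines. With all 48 libraries they were 10 (Stat5a KI, 4 hr), 2 (Stat5b KI, 24 hr), 16, 2, and 3 (Stat5a KI against WT at 4, 24, and 48 hr), 5 (Stat5a response, 24 hr), and 0 (line difference, 48 hr). With limma they were 1 (Stat5a WT, 4 hr), 1 (Stat5b KI, 24 hr), 1, 0, and 0 (Stat5a KI against WT at 4, 24, and 48 hr), 6 and 9 (Stat5a response), and 10 and 17 (Stat5b KI against WT at 0 and 4 hr). DESeq2 and its size factors in edgeR each gave 8 (Stat5a KI, 24 hr) and 2 (Stat5a KI against WT, 48 hr). No filter gave 2 (Stat5b KI, 24 hr), 3 (Stat5a KI against WT, 48 hr), and 2 (line difference, 48 hr), and the most counted transcript 2 and 3 for the former pair. Fits of only the groups compared gave 3 (Stat5b KI, 24 hr), 0 (Stat5a KI against WT, 4 hr), 16 (Stat5a response, 24 hr), and 2 (line difference, 48 hr). Without the 4 libraries that stand apart (replicate 3 of WT and 1 of KI cells at 0 hr, replicate 2 of WT and 1 of KI cells at 4 hr, picked for their values, which leaves 1 KI library at 4 hr that is assumed to vary like the other groups), Stat5a KI cells had 30 calls at 24 hr, KI against WT 0 at 4 hr, and the response 10 and 9. With single libraries left out, counts ran from 4 to 6 (Stat5a WT, 4 hr), 4 to 8 and 6 to 29 (Stat5a KI, 4 and 24 hr), 1 to 3 and 1 to 6 (Stat5b KI, 4 and 24 hr), 0 to 17, 0 to 13, and 1 to 8 (Stat5a KI against WT, 4, 24, and 48 hr), 2 to 34 and 4 to 35 (Stat5a response), 1 to 9 and 0 to 19 (line difference), and 27 to 31, 32 to 37, 33 to 43, and 46 to 48 (Stat5b KI against WT). With the replicate block the line difference at 48 hr was 2, and the pairing changed no other count by over 1.5 times. Shares of all genes called are given only for the main edgeR fit, so counts under the other settings lack that comparison. Of single named genes, 821 values were on the same side of the threshold, 18 no longer passed, 1 newly passed, and 0 reversed.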
